A study of Mus musculus with 32 samples.

Results

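The 10 genes described here encode the sensors of the unfolded protein response (UPR) and the factors of the integrated stress response that act after them: Atf6, Ern1, Eif2ak3, Xbp1, Atf4, Atf3, Ddit3, Ppp1r15a, Trib3 and Chac1. They were chosen by gene symbol, and all 10 were listed among the 12791 genes of the 10 mM glucose table and among the 12053 genes of the 1 mM glucose table. RNA was measured in mouse embryonic fibroblasts whose own Acly gene had been knocked out. Acly encodes ATP-citrate lyase (ACLY), which makes acetyl-CoA from citrate outside mitochondria. All 4 groups carry this knockout. KO cells carried the vector with only mCherry, a red fluorescent protein, WT cells expressed human ACLY tagged with mCherry, Cyto cells expressed this fusion with a nuclear export sequence, and Nuc cells expressed it with added nuclear import sequences. The cells were cultured in DMEM with 10% calf serum and then kept for 24 h in medium with 10 mM or 1 mM glucose. Each group had 4 libraries per medium, except Cyto in 10 mM glucose, which had 3 here. The labels name neither the promoter of the vector nor the number of clones behind each line, and they do not say whether the libraries came from separate cultures, so the p-values measure the spread among these libraries, which may be technical.

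The UPR is the response of cells to unfolded proteins in the endoplasmic reticulum (ER). Its sensors sit in the ER membrane: ATF6 is cut in the Golgi and releases a transcription factor, IRE1 (gene Ern1) splices the messenger of the transcription factor XBP1, and PERK (gene Eif2ak3) phosphorylates the translation factor eIF2. Phosphorylated eIF2 lowers protein synthesis but favours the translation of ATF4, and the genes that ATF4 switches on, such as Ddit3, Trib3 and Chac1, form the shared output of the integrated stress response. Much of this control acts on protein, on splicing or on translation, which levels of messenger RNA do not measure.

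Promoter sequences are shown because several of these genes moved together and are described in textbooks as targets of the same factors. RefSeq windows of GRCm38.p6, a build other than the GRCm39 that the submitters' processing notes name, were found for 9 of the 10 genes. Each 300-base window runs from 250 bases before the start site to 50 after it. It was searched on both strands for the C/EBP-ATF element TGATGNAA (bound by ATF4 dimers), the UPR element TGACGTGG, the ER stress elements I and II, and the cAMP response element TGACGTCA. A letter match is a description of the window and not a site of binding. Atf3 and Chac1 hold the C/EBP-ATF element on the minus strand, written below in capitals, with its first base at position -110 and -193 from the start site. Of 32851 mouse windows 3.97% hold that element. Ppp1r15a holds the cAMP response element, in capitals, at position -12, a motif found in 1.79% of windows. The 250 bases upstream of the start of these genes, 5′ to 3′ on the strand of the gene, are:
Atf3, chr1:191183334-191183583, minus strand: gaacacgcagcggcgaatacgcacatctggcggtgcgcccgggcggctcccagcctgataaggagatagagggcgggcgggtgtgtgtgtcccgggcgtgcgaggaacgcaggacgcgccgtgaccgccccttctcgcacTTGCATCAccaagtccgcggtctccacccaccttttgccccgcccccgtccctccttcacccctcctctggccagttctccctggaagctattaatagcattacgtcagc
Chac1, chr2:119350992-119351241, plus strand: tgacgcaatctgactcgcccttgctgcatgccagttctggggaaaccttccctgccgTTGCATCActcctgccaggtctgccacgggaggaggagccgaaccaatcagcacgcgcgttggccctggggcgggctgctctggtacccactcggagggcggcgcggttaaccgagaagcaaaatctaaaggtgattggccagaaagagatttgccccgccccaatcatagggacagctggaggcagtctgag
Ppp1r15a, chr7:45526269-45526518, minus strand: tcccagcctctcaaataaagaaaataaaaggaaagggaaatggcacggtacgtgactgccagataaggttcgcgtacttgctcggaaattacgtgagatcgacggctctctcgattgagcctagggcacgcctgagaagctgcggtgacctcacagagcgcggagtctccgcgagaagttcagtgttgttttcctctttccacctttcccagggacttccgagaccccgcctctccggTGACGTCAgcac
In Trib3, on chromosome 2, the C/EBP-ATF element lies 15 bases after the start, in the sequence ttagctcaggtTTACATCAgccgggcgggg. None of the 5 motifs was found in the windows of Ern1, Eif2ak3, Xbp1, Atf4 and Ddit3, which says only that these letters are not in the 300 bases searched. The UPR element is in 0.676% of all windows and the ER stress elements I and II are in 0.119% and 0.0365%.

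Values, called log2 CPM here, are close to that unit: the linear values of a library sum to 0.933 to 1.10 times the total that exact CPM gives, and no source used here gives the offset and the scaling between libraries. The sum was lowest in KO in both media. In 1 mM glucose it was 0.933 to 0.966 in KO, 0.973 to 0.994 in Cyto, 1.00 to 1.02 in Nuc and 1.02 to 1.10 in WT. In 10 mM glucose it was 0.952 to 0.971 in KO and 1.01 to 1.03 in the other groups. A log2 difference of 1 is a doubling. The check of the labels was the level listed under Acly, whose own gene is knocked out in all groups. Acly was at 5.63 to 6.12 in KO libraries in 10 mM glucose and at 5.19 to 5.43 in 1 mM glucose, and above both ranges in every library with an ACLY construct. It was at 10.14 to 10.28 in WT, 9.67 to 9.89 in Cyto and 8.98 to 9.24 in Nuc in 10 mM glucose, and in 1 mM glucose at 10.43 to 10.68, 10.41 to 10.55 and 8.87 to 9.05, so Nuc was the lowest of the ACLY groups in both. The constructs encode human ACLY, and no source used here says how their reads were assigned to the mouse gene. Fibroblast markers were listed for 10 of 10 genes, epithelial markers for 0 of 6, endothelial markers for at most 2 of 5 with a summed level of at most 5.68 CPM, and leukocyte markers for 2 of 6 (Cd68 and Cd74), while Ptprc, which defines leukocytes, was not listed. The summed leukocyte markers were highest in KO, at 37.2 to 54.7 CPM against 13.9 to 29.2 CPM in the other groups in 10 mM glucose, and at 120 to 133 CPM against 23.9 to 61.0 CPM in 1 mM glucose. The summed fibroblast markers were lowest in KO in 10 mM glucose, at 25823 to 26841 CPM against 36734 to 52804 CPM, and in 1 mM glucose they were at 34454 to 43160 CPM in KO and Cyto and at 54182 to 67669 CPM in WT and Nuc. Of the CPM total, transcripts of the mitochondrial genome took 4.70% to 4.79% in KO and 3.49% to 4.40% in the other groups in 10 mM glucose. Their share with 1 mM glucose was 1.65% to 1.95% in KO, 1.20% to 1.31% in WT, 0.875% to 1.06% in Cyto and 1.30% to 1.72% in Nuc. The part of these shifts in the results was not tested. WT replicate 2 stood apart from the other libraries in 1 mM glucose. The SD over genes of its difference from the other WT libraries was 0.551 to 0.585, against 0.326 to 0.394 in the other 21 same-group pairs of that medium. In 10 mM glucose the 21 same-group pairs ranged from 0.402 to 0.635. Differences of the 10 genes that involve WT in 1 mM glucose, and the list counts of WT there, are given with and without WT replicate 2. Single genes of the lists are given with it.

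In 1 mM glucose the 10 genes were higher in cells with ACLY than in KO with few exceptions. Of the 10, 9 rose in WT, 10 in Cyto and 9 in Nuc, and none fell. Of all genes 58.2%, 64.7% and 60.0% were called in these comparisons, with 29.7%, 31.7% and 30.5% higher and 28.5%, 33.0% and 29.5% lower. The median log2 difference of the 10 genes from KO was 1.03 in WT, 1.89 in Cyto and 1.47 in Nuc. The gene not called in WT and in Nuc was Ern1. The count in WT was again 9 without WT replicate 2, with a median of 0.98 and 60.2% of all genes called. In 10 mM glucose fewer of them moved: 4 rose in WT, 9 in Cyto and 6 in Nuc, again with none lower, where 40.8%, 38.5% and 45.3% of all genes were called with 20.6%, 19.6% and 22.7% higher and 20.2%, 18.9% and 22.7% lower. The medians there were 0.19, 0.77 and 0.36. Over all genes the median of each comparison lay between -0.026 and 0.011 in both tables. Here and throughout, called means an adjusted p under 0.05 in limma over the whole table, the value after ± is the standard error, and the comparisons with KO share the same KO libraries. In these bulk samples a lower level of RNA per cell and fewer cells with the transcript cannot be told apart. The media differ in sequencing batch and were normalized separately, so levels are compared within a medium only.

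**Figure D1:**
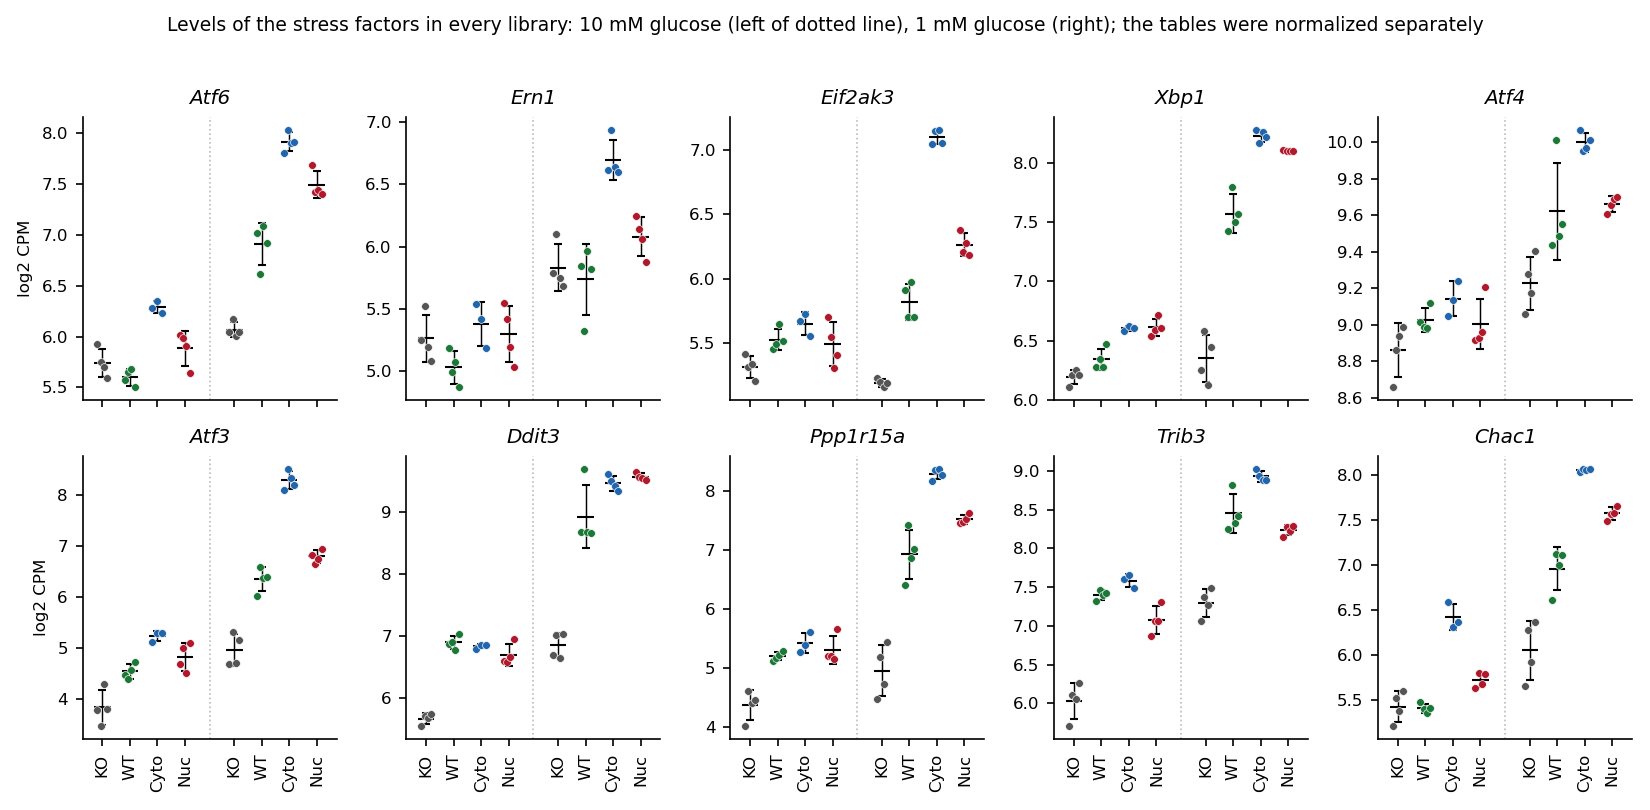
Level of each of the 10 genes in every library (log2 CPM, vertical axis), by construct, with 10 mM glucose left and 1 mM glucose right of the dotted line in each panel. Points are libraries, and bars show the mean and SD. At 1 mM glucose the KO libraries lie below all Cyto libraries for all 10 genes. Levels left and right of a dotted line were normalized separately.

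The sensors came first. Atf6, the membrane-bound transcription factor, stood in 1 mM glucose at 6.04, 6.17, 6.00 and 6.05 in KO replicates 1 to 4. It stood at 7.02, 6.62, 7.09 and 6.91 in WT, at 7.81, 8.03, 7.90 and 7.91 in Cyto, and at 7.69, 7.42, 7.44 and 7.40 in Nuc. No group overlapped another, with KO lowest, then WT, Nuc and Cyto. Cyto exceeded KO by 1.85 ± 0.09 (3.59-fold, adjusted p = 3.33e-11), Nuc by 1.42 ± 0.09 (2.68-fold) and WT by 0.84 ± 0.09 (1.79-fold, and 0.94 without WT replicate 2). At 10 mM glucose Atf6 was at 6.23 to 6.35 in Cyto against 5.59 to 5.93 in KO, a rise of 0.55 ± 0.10 (adjusted p = 0.00032). WT, at 5.50 to 5.68, and Nuc, at 5.64 to 6.01, overlapped KO there, with differences of -0.14 (95% interval -0.33 to 0.05) and 0.15 (-0.05 to 0.34). Without Nuc replicate 4 the Nuc difference was called (0.23, adjusted p = 0.0322).

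Ern1, which encodes the kinase and RNase IRE1, changed least of the sensors. With 1 mM glucose it was at 5.68 to 6.11 in KO, 5.32 to 5.96 in WT, 6.60 to 6.94 in Cyto and 5.87 to 6.25 in Nuc. Cyto alone stood above KO without overlap, by 0.87 ± 0.13 (1.83-fold, adjusted p = 1.73e-05). WT differed from KO by -0.09 (95% interval -0.37 to 0.18) and Nuc by 0.25 (-0.02 to 0.53), and neither was called. The Nuc difference was called without KO replicate 2 (0.34, adjusted p = 0.0357) or, through the shared estimate of the spread, without WT replicate 2 (adjusted p = 0.0309). Without WT replicate 2, the lowest of the WT libraries at 5.32, the WT difference was 0.05. With 10 mM glucose the Ern1 levels of all groups lay between 4.87 and 5.54, and no comparison with KO was called, with differences of -0.23 in WT, 0.12 in Cyto and 0.03 in Nuc. The WT difference was called lower with the replicate number as a term in the fit (adjusted p = 0.0422).

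Eif2ak3, the gene of the eIF2 kinase PERK, had the tightest groups of the sensors in 1 mM glucose. KO libraries were at 5.23, 5.20, 5.16 and 5.19, and WT libraries at 5.91, 5.70, 5.97 and 5.71. Cyto libraries were at 7.05, 7.14, 7.15 and 7.05, and Nuc libraries at 6.38, 6.21, 6.28 and 6.18. The groups did not overlap, and the order was again KO, WT, Nuc and Cyto. The rise over KO was 1.90 ± 0.07 in Cyto (3.74-fold, adjusted p = 1.13e-12), 1.07 ± 0.07 in Nuc (2.10-fold) and 0.63 ± 0.07 in WT (1.55-fold, and 0.67 without WT replicate 2). In 10 mM glucose only the Cyto difference from KO was called (0.33 ± 0.10, adjusted p = 0.011), with Cyto at 5.56 to 5.73 and KO at 5.21 to 5.41, and it lost its call without Cyto replicate 2 (0.30, adjusted p = 0.0523). WT differed from KO by 0.21 (95% interval 0.02 to 0.40, adjusted p = 0.0699) without overlap, and Nuc by 0.17 (-0.01 to 0.36). These were called without Nuc replicate 1 (WT, adjusted p = 0.0479) and without Nuc replicate 3 (Nuc, 0.24, adjusted p = 0.0446).

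Xbp1 encodes the transcription factor whose messenger IRE1 splices. The tables hold 1 value per gene, so spliced and unspliced Xbp1 are not separated. In 1 mM glucose it was at 6.25, 6.58, 6.13 and 6.44 in KO and at 7.42, 7.80, 7.50 and 7.57 in WT. Cyto libraries were at 8.28, 8.17, 8.26 and 8.22, and Nuc libraries were at 8.10 to 8.11. Xbp1 rose over KO by 1.88 ± 0.09 in Cyto (3.69-fold, adjusted p = 1.64e-11), 1.76 ± 0.09 in Nuc (3.38-fold) and 1.22 ± 0.09 in WT (2.34-fold, and 1.15 without WT replicate 2). At 10 mM glucose Cyto (6.58 to 6.62) and Nuc (6.54 to 6.71) were above KO (6.10 to 6.25) by 0.41 ± 0.07 and 0.42 ± 0.06, with adjusted p = 0.00016 and 4.27e-05. WT, at 6.27 to 6.47, exceeded all KO libraries by a mean of 0.15 that was not called (adjusted p = 0.0695).

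Atf4, the central transcription factor of the integrated stress response, rose over KO in all 3 ACLY groups in 1 mM glucose. Its range there was 9.06 to 9.40 in KO, 9.44 to 10.01 in WT, 9.95 to 10.07 in Cyto and 9.61 to 9.70 in Nuc. All WT, Cyto and Nuc libraries were above all KO libraries, by 0.39 ± 0.10 (1.31-fold, adjusted p = 0.003), 0.77 ± 0.10 (1.71-fold, adjusted p = 3.54e-06) and 0.44 ± 0.10 (1.35-fold, adjusted p = 0.0013). The WT difference was 0.26 without WT replicate 2, which held the highest WT level, and 0.16 (adjusted p = 0.0897) after quantile normalization. With 10 mM glucose Cyto was at 9.05, 9.14 and 9.24 and KO at 8.66 to 8.99, a difference of 0.28 ± 0.08 (adjusted p = 0.0146). That call was lost after quantile normalization (0.15, adjusted p = 0.0881) and without Cyto replicate 4 (0.23, adjusted p = 0.0756). The differences of WT (0.16) and Nuc (0.14) from KO were not called there, and both groups overlapped KO.

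Atf3, an early stress transcription factor with the C/EBP-ATF element shown above, ranged more widely than any of the genes before it. At 1 mM glucose KO libraries were at 4.68, 5.31, 4.71 and 5.15 and Cyto libraries at 8.09, 8.51, 8.32 and 8.20. WT libraries lay between, at 6.02, 6.59, 6.37 and 6.40, as did Nuc libraries, at 6.83, 6.65, 6.75 and 6.93. Every ACLY group was above KO without overlap. Cyto exceeded KO by 3.32 ± 0.14, which is 9.96-fold (adjusted p = 5.65e-12), Nuc by 1.83 ± 0.14 (3.55-fold) and WT by 1.38 ± 0.14 (2.60-fold, and 1.30 on the log2 scale without WT replicate 2). In 10 mM glucose Atf3 was also higher than in KO (3.48 to 4.30) in all 3 groups: WT at 4.41 to 4.73, Cyto at 5.13 to 5.30 and Nuc at 4.52 to 5.10. These rises were 0.70 ± 0.16 (adjusted p = 0.0021), 1.39 ± 0.17 (adjusted p = 8.41e-06) and 0.98 ± 0.16 (adjusted p = 8.69e-05).

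Ddit3 encodes CHOP, a transcription factor of prolonged ER stress. At 10 mM glucose it was at 5.54, 5.70, 5.68 and 5.73 in KO and between 6.57 and 7.03 in every other library. WT exceeded KO by 1.23 ± 0.08 (2.35-fold, adjusted p = 1.03e-08), Cyto by 1.18 ± 0.09 (2.26-fold) and Nuc by 1.03 ± 0.08 (2.04-fold). The ACLY groups overlapped one another there. With 1 mM glucose KO libraries were at 6.65 to 7.02, Cyto libraries at 9.61, 9.50, 9.41 and 9.34, and Nuc libraries at 9.65, 9.56, 9.55 and 9.51. WT replicates 1, 3 and 4 were at 8.68, 8.67 and 8.65 and WT replicate 2 at 9.70. Nuc exceeded KO by 2.72 ± 0.18 (6.61-fold, adjusted p = 9.42e-10), Cyto by 2.62 ± 0.18 (6.16-fold) and WT by 2.09 ± 0.18 (4.24-fold). Without WT replicate 2 the WT rise was 1.83 ± 0.08.

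Ppp1r15a encodes GADD34, the subunit that directs a phosphatase to eIF2 and so opposes PERK. Its promoter window holds the cAMP response element shown above. In 1 mM glucose KO libraries were at 4.47, 5.18, 4.74 and 5.43, WT libraries at 6.41, 7.42, 6.87 and 7.02, Cyto libraries at 8.18, 8.35, 8.37 and 8.27, and Nuc libraries at 7.46, 7.47, 7.52 and 7.62. No group overlapped another. Cyto exceeded KO by 3.34 ± 0.19, or 10.1-fold (adjusted p = 1.63e-10), the highest ratio among the 10 genes, Nuc by 2.56 ± 0.19 (5.91-fold) and WT by 1.98 ± 0.19 (3.93-fold, and 1.81 on the log2 scale without WT replicate 2). With 10 mM glucose KO was at 4.01 to 4.61 and all other libraries at 5.13 to 5.66. The rises were 0.83 ± 0.13 in WT, 1.05 ± 0.14 in Cyto and 0.94 ± 0.13 in Nuc, with adjusted p-values of 0.000101, 2.25e-05 and 2.26e-05.

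Trib3, a pseudokinase induced by ATF4 and CHOP, was higher than in KO in both media, and its differences from KO were not called different between media. In 10 mM glucose KO libraries were at 5.70, 6.11, 6.05 and 6.26, WT at 7.32, 7.46, 7.40 and 7.43, Cyto at 7.60, 7.66 and 7.49, and Nuc at 6.87, 7.06, 7.07 and 7.31. Cyto was 1.55 ± 0.11 above KO (2.93-fold, adjusted p = 2.95e-08), WT 1.37 ± 0.10 (2.58-fold) and Nuc 1.04 ± 0.10 (2.06-fold). At 1 mM glucose the ranges were 7.07 to 7.49 in KO, 8.25 to 8.82 in WT, 8.88 to 9.03 in Cyto and 8.15 to 8.29 in Nuc. The differences from KO were 1.63 ± 0.10 in Cyto (3.10-fold), 1.15 ± 0.10 in WT (2.22-fold, and 1.03 on the log2 scale without WT replicate 2) and 0.94 ± 0.10 in Nuc (1.92-fold), with adjusted p-values of at most 8.17e-07.

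Chac1, which degrades glutathione and holds the C/EBP-ATF element shown above, separated Cyto from the other groups in 10 mM glucose. Its Cyto libraries were at 6.59, 6.31 and 6.37, KO at 5.21, 5.53, 5.38 and 5.60, WT at 5.48, 5.41, 5.36 and 5.41, and Nuc at 5.64, 5.81, 5.68 and 5.79. Cyto exceeded KO by 0.99 ± 0.10 (1.99-fold, adjusted p = 6.54e-07) and Nuc exceeded it by 0.30 ± 0.09 (1.23-fold, adjusted p = 0.0118), while WT differed from KO by -0.02 (95% interval -0.20 to 0.17). With 1 mM glucose the levels were 5.65 to 6.36 in KO, 6.61 to 7.12 in WT, 8.02 to 8.06 in Cyto and 7.49 to 7.66 in Nuc, with no overlap between groups. The rises over KO were 1.99 ± 0.13 in Cyto (3.98-fold, adjusted p = 8.44e-10), 1.51 ± 0.13 in Nuc (2.86-fold) and 0.90 ± 0.13 in WT (1.87-fold, adjusted p = 1.63e-05, and 0.85 on the log2 scale without WT replicate 2).

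**Figure D2:**
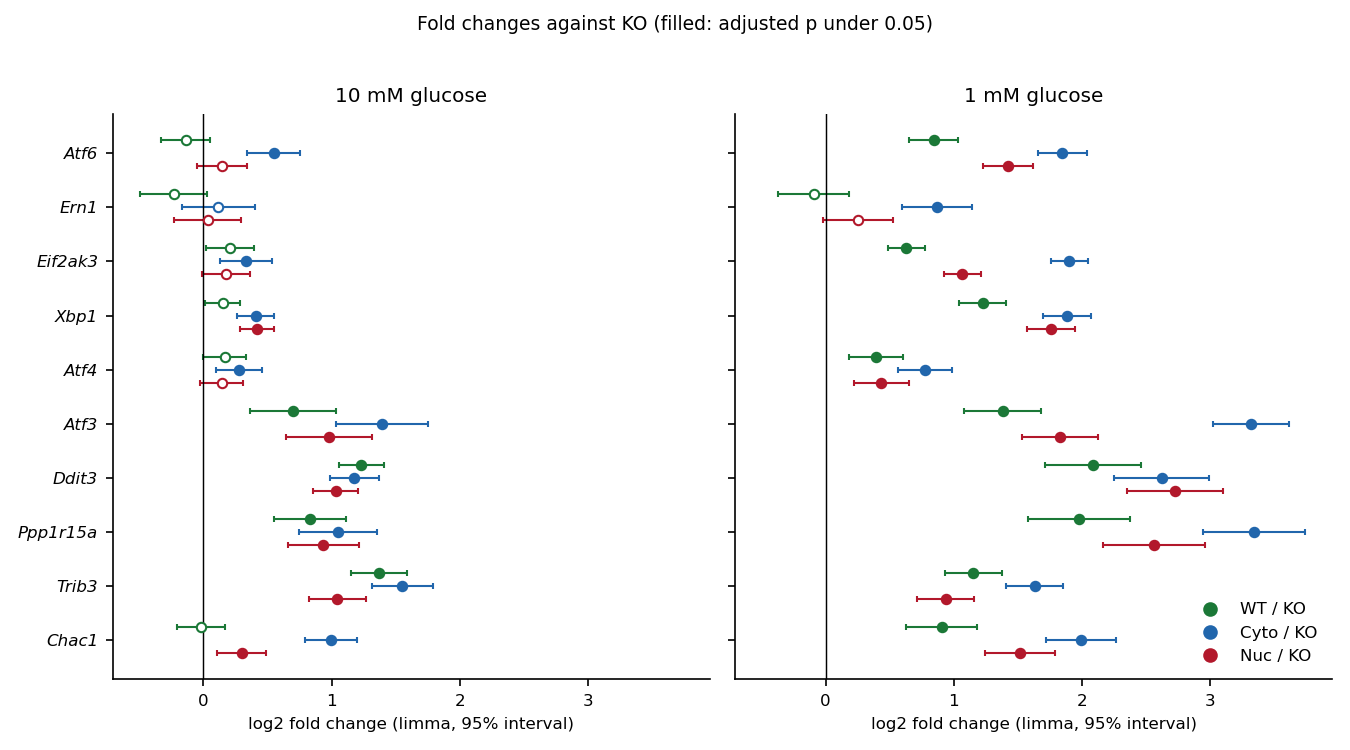
Log2 fold change of each gene in WT, Cyto and Nuc against KO (horizontal axis) with its 95% interval from limma, in 10 mM glucose (left) and 1 mM glucose (right). Filled points have an adjusted p under 0.05. In 1 mM glucose Atf3 and Ppp1r15a reach 3.32 and 3.34 in Cyto, and the open points are Ern1 in WT and Nuc.

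The constructs also differed from each other, in 1 mM glucose with Cyto above WT for all 10 genes and above Nuc for 8, and in 10 mM glucose for 4 and 3. At 1 mM glucose Cyto had the highest mean for 9 of the 10 genes and KO the lowest for 9, and for 7 genes the order was KO, WT, Nuc and Cyto. At 10 mM glucose Cyto had the highest mean for 8 and KO the lowest for 7, and the order KO, WT, Nuc and Cyto held for 2. Neighbours in the order differed with an adjusted p under 0.05 at every step for Atf6, Eif2ak3, Atf3, Ppp1r15a and Chac1 in 1 mM glucose and for no gene in 10 mM glucose. When WT replicate 2 was left out, KO was lowest for all 10 genes in 1 mM glucose, the order KO, WT, Nuc and Cyto held for 8, and Atf4 joined the genes whose neighbours differed at every step. For Ern1, Eif2ak3 and Atf4 no neighbours were called apart in 10 mM glucose. How many of all genes follow these orders was not counted, so the orders are not shown to be particular to the 10 genes.

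Nuc was lower than Cyto for 8 of the 10 genes in 1 mM glucose and higher for none, with a median of -0.55, where 41.0% of all genes were called, 20.5% lower and 20.4% higher. Acly itself was lower in Nuc than in Cyto in both media, by the levels given above, and its part in these differences was not tested. Atf3 fell furthest, with Nuc at 0.356 of the Cyto level (-1.49 ± 0.14, adjusted p = 2.89e-07), followed by Eif2ak3 (-0.83 ± 0.07, adjusted p = 5.39e-08) and Ppp1r15a (-0.78 ± 0.19, adjusted p = 0.0033). The log2 difference was -0.69 ± 0.10 for Trib3, -0.62 ± 0.13 for Ern1, -0.48 ± 0.13 for Chac1, -0.42 ± 0.09 for Atf6 and -0.34 ± 0.10 for Atf4. The genes not called were Xbp1, at -0.13 (95% interval -0.31 to 0.06), and Ddit3, at 0.10 (-0.27 to 0.47). For Xbp1 the Nuc and Cyto libraries did not overlap, and the difference was called with these groups fitted alone (adjusted p = 0.0144). With 10 mM glucose 3 of the 10 were lower in Nuc than in Cyto and none higher, with 31.0% of all genes called, 15.7% lower and 15.3% higher, and the median was -0.15. They were Chac1 (-0.70 ± 0.10, adjusted p = 3.78e-05), Trib3 (-0.51 ± 0.11, adjusted p = 0.0025) and Atf6 (-0.40 ± 0.10, adjusted p = 0.005). The count was 6 without Nuc replicate 4, the library with the highest Nuc level of Atf4 and Ppp1r15a, when Atf3 (-0.50), Ddit3 (-0.23) and Atf4 (-0.21) were called as well, and Atf3 was also called without KO replicate 3 (adjusted p = 0.0413). Xbp1 differed by 0.01 (-0.13 to 0.15).

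Cyto exceeded WT for all 10 genes in 1 mM glucose, where 53.2% of genes were called, 25.7% higher and 27.5% lower, and the median was 0.98. Atf3 was 1.94 ± 0.14 higher (3.83-fold, adjusted p = 7.29e-09), Ppp1r15a 1.36 ± 0.19 (2.57-fold), Eif2ak3 1.27 ± 0.07 (2.42-fold), Chac1 1.09 ± 0.13 (2.13-fold) and Atf6 1.00 ± 0.09 (2.00-fold). The smallest differences were those of Atf4 (0.38 ± 0.10), Trib3 (0.48 ± 0.10) and Ddit3 (0.54 ± 0.18, adjusted p = 0.0163), and WT replicate 2 lay inside the Cyto range for Atf4 and above it for Ddit3. Ern1 was 0.96 higher and Xbp1 0.66. Without that library all 10 were still called, with a median of 0.86. The differences were then 2.02 for Atf3, 1.53 for Ppp1r15a, 1.23 for Eif2ak3, 1.14 for Chac1, 0.91 for Atf6, 0.82 for Ern1, 0.80 for Ddit3, 0.74 for Xbp1, 0.60 for Trib3 and 0.51 for Atf4. The Ddit3 call was lost without WT replicate 1 (0.45, adjusted p = 0.0536), 3 (0.45, adjusted p = 0.0529) or 4 (0.45, adjusted p = 0.0568), and with Cyto and WT fitted alone (adjusted p = 0.0631). In 10 mM glucose 4 genes were higher in Cyto than in WT and none lower, against 31.5% of genes called, 15.9% higher and 15.6% lower: Chac1 (1.01 ± 0.10, 2.01-fold), Atf3 (0.70 ± 0.17), Atf6 (0.69 ± 0.10) and Xbp1 (0.26 ± 0.07). Ern1, at 0.35 ± 0.13 (adjusted p = 0.0564), was called without KO replicate 2, WT replicate 1, Cyto replicate 4, Nuc replicate 1 or Nuc replicate 4 (adjusted p between 0.0352 and 0.0499).

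Nuc exceeded WT for 8 genes in 1 mM glucose, with 39.1% of all genes called, 19.7% higher and 19.4% lower, and with a median of 0.49. The differences ran from 0.34 for Ern1 to 0.64 for Ddit3, and the genes not called were Atf4 (0.04, 95% interval -0.17 to 0.25) and Trib3 (-0.21, -0.44 to 0.01). Without WT replicate 2 the Ddit3 difference was 0.90, Ern1 was no longer called (0.21, adjusted p = 0.127) and Atf4 was (0.17, adjusted p = 0.0334), so the count was again 8, with a median of 0.51. The differences of the other genes then ran from 0.40 for Eif2ak3 to 0.75 for Ppp1r15a among those called, and Trib3 was at -0.09. The Ern1 call (adjusted p = 0.0448) was also lost when WT replicate 4, KO replicate 1 or 3, Cyto replicate 1, 3 or 4, or Nuc replicate 1, 2 or 3 was left out (adjusted p between 0.0519 and 0.126). Atf3 and Ppp1r15a lost their calls without WT replicate 1 (0.34 and 0.42, adjusted p = 0.0679 and 0.0729) or without Nuc replicate 4 (0.40 and 0.55, adjusted p = 0.0558 and 0.0507). At 10 mM glucose 3 genes were higher in Nuc than in WT and 1 was lower, where 28.8% of genes were called, 15.0% higher and 13.8% lower: Chac1 (0.31 ± 0.09), Atf6 (0.28 ± 0.09) and Xbp1 (0.27 ± 0.06) against Trib3 (-0.32 ± 0.10). The Atf6 and Trib3 calls, with adjusted p = 0.0266 and 0.0274, were both lost without WT replicate 4 or without Nuc replicate 1, 2 or 3, which left 2 called. Trib3 was also lost without WT replicate 2 or 3, and Atf6 without WT replicate 1. Without Nuc replicate 4, Ern1 (0.36, adjusted p = 0.0364) and Ddit3 (-0.29, adjusted p = 0.0049) were called in addition.

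**Figure D3:**
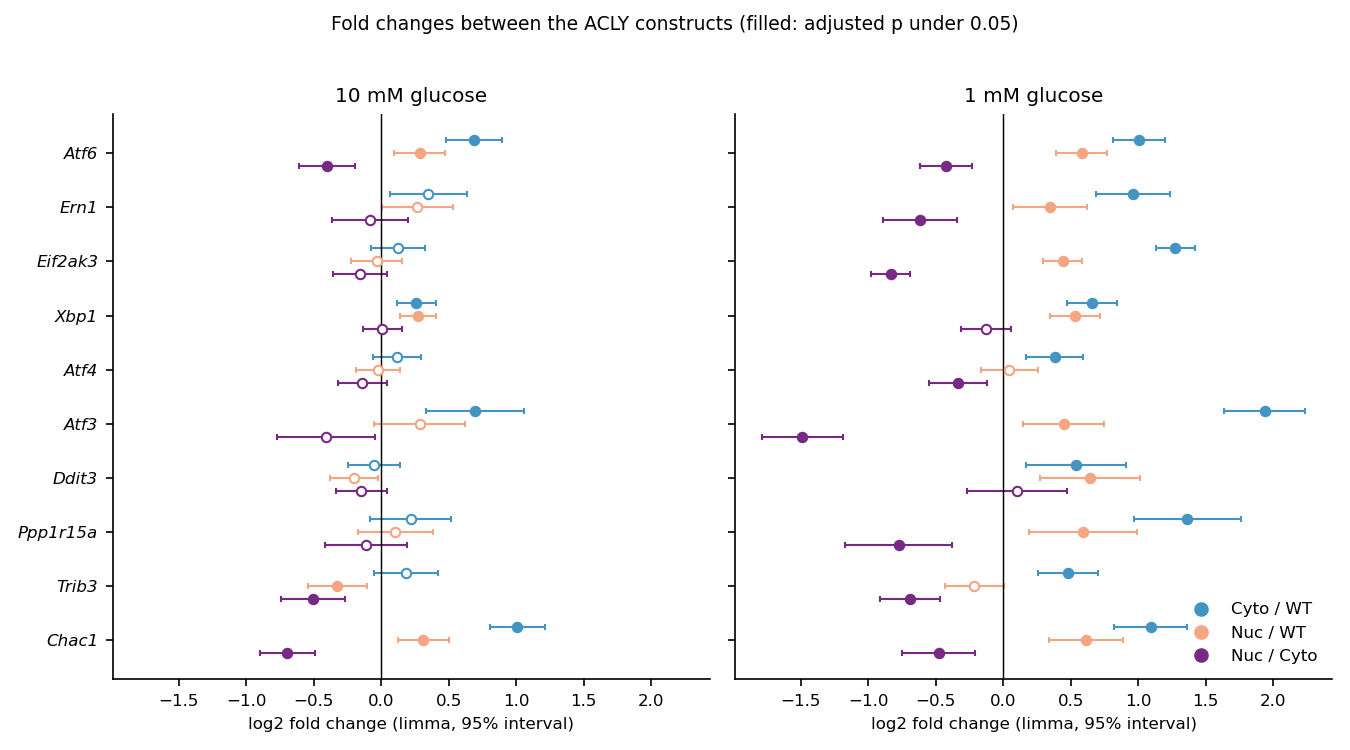
Log2 fold change of each gene between the ACLY constructs (horizontal axis) with its 95% interval from limma, in 10 mM glucose (left) and 1 mM glucose (right). Filled points have an adjusted p under 0.05. With 1 mM glucose all 10 Cyto against WT points lie above 0, and the Nuc against Cyto points of Xbp1 and Ddit3 are open.

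Whether the difference between 2 constructs itself differed between media was tested on the 11931 genes in both tables, by subtracting the log2 fold change seen with 10 mM glucose from that with 1 mM glucose. The labels give each medium a batch of its own, so medium and batch cannot be told apart, and only a batch effect shared by both constructs cancels in the test. The rise over KO was larger in 1 mM glucose for 7 of the 10 genes in WT, 9 in Cyto and 7 in Nuc, and smaller for none. Over all genes 26.2%, 44.7% and 36.5% were called in these tests, with 13.5%, 21.5% and 17.8% higher and 12.7%, 23.2% and 18.7% lower. The medians of the 10 genes were 0.77, 1.37 and 1.05, while those of all genes ran from -0.029 to -0.022. In Cyto the difference was 2.29 ± 0.25 for Ppp1r15a (adjusted p = 1.92e-08), 1.92 ± 0.23 for Atf3, 1.57 ± 0.11 for Eif2ak3 and 1.47 ± 0.11 for Xbp1. In Nuc it was highest for Ddit3 (1.69 ± 0.21), Ppp1r15a (1.63 ± 0.24) and Xbp1 (1.34 ± 0.11), and in WT for Ppp1r15a (1.15 ± 0.24, and 0.98 without WT replicate 2) and Xbp1 (1.07 ± 0.11, and 1.00 without it). Without that library the same 7 genes were called in WT, with a median of 0.60: Atf6 was at 1.08 (0.98 with it), Chac1 at 0.87 (0.92), Eif2ak3 at 0.46 (0.42), Atf3 at 0.60 (0.68) and Ddit3 at 0.60 (0.85). Ern1 was at 0.28 (0.14), Atf4 at 0.10 (0.23) and Trib3 at -0.34 (-0.22), none of them called. Trib3 was called in none of the 3, at -0.22 (95% interval -0.53 to 0.10) in WT, 0.08 (-0.25 to 0.41) in Cyto and -0.11 (-0.42 to 0.21) in Nuc. Ern1 and Atf4 were called in Cyto, at 0.75 and 0.49. In Nuc, Atf4 was at 0.29 (adjusted p = 0.08), and it was called without KO replicate 1 or Nuc replicate 4 of 10 mM glucose, or KO replicate 4 or WT replicate 2 of 1 mM glucose (adjusted p between 0.0197 and 0.0412). Atf3 in WT (0.68, adjusted p = 0.0208) lost its call without KO replicate 3 of 10 mM glucose or KO replicate 1 or 3 of 1 mM glucose (adjusted p between 0.0541 and 0.0603).

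The distance between Nuc and Cyto was larger in 1 mM than in 10 mM glucose for Atf3 (-1.08 ± 0.23, adjusted p = 0.00089) and Eif2ak3 (-0.68 ± 0.11, adjusted p = 5.1e-05). These 2 were the genes called of the 10, with 19.0% of all genes called, 9.48% lower and 9.47% higher. Without WT replicate 2 in 1 mM glucose, which enters through the shared estimate of the spread, the count was 4, with Ern1 (-0.53, adjusted p = 0.0222) and Ppp1r15a (-0.66, adjusted p = 0.0349) added. With all libraries their adjusted p-values were 0.0517 and 0.0655. Ern1 was also called when KO replicate 2 or 4, Cyto replicate 1 or Nuc replicate 4 of 10 mM glucose, or KO replicate 2, WT replicate 3 or Nuc replicate 1 of 1 mM glucose was left out, and Ppp1r15a when KO replicate 1 or 4 or WT replicate 1 of 1 mM glucose was. For Chac1, lower in Nuc in both media, the difference was 0.22 (95% interval -0.13 to 0.56), and for Atf6 it was -0.02 (-0.30 to 0.25).

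Other genes of the pathway were taken from lists written from general knowledge, without the 10 genes above. Earlier results of these data were known when the lists were written, so their counts are a description and not independent support. The ATF6 and XBP1 target list holds chaperones and degradation factors of the ER, and 24 of its 25 genes were measured. In 1 mM glucose all 24 were higher than in KO in each ACLY group (WT, Cyto and Nuc), with medians of 1.53, 2.13 and 2.28, where 58.2%, 64.7% and 60.0% of all genes were called. Without WT replicate 2 all 24 were again called in WT, with a median of 1.41. Examples are the chaperone Hyou1 (1.85 ± 0.09 in WT, 3.28 ± 0.09 in Cyto and 3.17 ± 0.09 in Nuc) and Syvn1, a ubiquitin ligase of ER-associated degradation (1.60 ± 0.06, 1.87 ± 0.06 and 2.34 ± 0.06). With 10 mM glucose 17 were higher and 1 lower in WT, 9 and 1 in Cyto, and 9 and 2 in Nuc, with medians of 0.30, 0.16 and 0.16. These are 75%, 41.7% and 45.8% of the list, against 40.8%, 38.5% and 45.3% of all genes. In Cyto and Nuc the share called in either direction was thus near that of all genes. The calls of the list were mostly higher, while all genes had 19.6% higher and 18.9% lower in Cyto, and 22.7% each way in Nuc. Without Cyto replicate 4 the Cyto count was 5 in all. Derl1, which moves proteins out of the ER for degradation, rose in all 3 groups there (0.47 ± 0.07, 0.68 ± 0.07 and 0.53 ± 0.07). Between Nuc and Cyto in 1 mM glucose 4 of these 24 genes were higher, 2 lower and 18 not called, with a median of 0.0036, so 25% of the list was called against 41.0% of all genes. Without WT replicate 2, which enters through the shared estimate of the spread, 8 were higher and 5 lower, or 54.2% against 51.3% of all genes. Edem1, a factor of ER-associated degradation, was 0.89 ± 0.07 higher in Nuc and Sec24d, a subunit of the COPII coat, differed by -0.65 ± 0.05. The difference between media in Nuc against Cyto was called for 3 of the 24 (12.5%, against 19.0% of all genes), 1 higher and 2 lower, and for 5 without Nuc replicate 1 of 1 mM glucose.

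The ATF4 program list holds genes of amino acid synthesis, amino acid transport and tRNA charging, and others such as Nupr1, Gdf15, Ddit4 and Vldlr. Of its 33 genes, all measured in 1 mM glucose, 27 were higher and 3 lower than in KO in WT, 29 and 2 in Cyto, and 29 and 2 in Nuc, with medians of 0.43, 0.99 and 0.70. These are 90.9%, 93.9% and 93.9% of the list, where 58.2%, 64.7% and 60.0% of all genes were called, and without WT replicate 2 the WT counts were 26 and 3. Wars1, the tryptophanyl-tRNA synthetase, rose by 1.28 ± 0.06, 1.68 ± 0.06 and 1.75 ± 0.06, and Nupr1, a stress-induced chromatin protein, by 1.12 ± 0.11, 2.49 ± 0.11 and 2.23 ± 0.11. Slc7a11, the cystine transporter, was higher than in KO in Cyto (3.07 ± 0.13) and Nuc (2.33 ± 0.13), and it was lower in WT (-0.74, adjusted p = 0.00013). In 10 mM glucose 32 of the 33 were measured, and 13 were higher and 4 lower in WT, 14 and 4 in Cyto, and 15 and 5 in Nuc, with medians of 0.07, 0.13 and 0.23, or 53.1%, 56.2% and 62.5% of the list against 40.8%, 38.5% and 45.3% of all genes. Slc7a11 fell by 1.77 ± 0.15 in WT, and Gdf15, a secreted stress hormone, differed from KO by -1.24 ± 0.15 in Cyto (adjusted p = 5.99e-06). In Nuc against Cyto in 1 mM glucose 15 of the 33 were lower and 3 higher (54.5%, against 41.0% of all genes), with a median of -0.25. Cth, which makes cysteine from cystathionine, was lower (-0.78 ± 0.08, adjusted p = 3.52e-07), and so was Ddit4, an inhibitor of mTORC1 (-0.55 ± 0.06), while the lipoprotein receptor Vldlr was higher (1.05 ± 0.11).

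The other sensors and regulators moved in both directions, with more genes higher than lower in the UPR machinery list. Of 16 genes of the UPR machinery in 1 mM glucose, 9 were higher and 1 lower than in KO in WT, 10 and 2 in Cyto, and 7 and 2 in Nuc, with medians of 0.29, 0.33 and 0.10. The shares called in either direction were 62.5%, 75% and 56.2%, against the 58.2%, 64.7% and 60.0% of all genes. Split by direction, 29.7%, 31.7% and 30.5% of all genes were higher and 28.5%, 33.0% and 29.5% lower. Without WT replicate 2 the WT counts of the list were 11 and 1. Wfs1, an ER membrane protein, rose by 1.21 ± 0.06, 1.88 ± 0.06 and 1.89 ± 0.06, and Creb3l1, a membrane-bound transcription factor related to ATF6, by 1.10 ± 0.08, 1.27 ± 0.08 and 2.18 ± 0.08. Mbtps1, the protease that makes the first cut in ATF6, was lower in Cyto (-0.60 ± 0.06). At 10 mM glucose 6 of the 16 were higher and 1 lower in WT, 6 and 1 in Cyto, and 7 and 3 in Nuc (43.8%, 43.8% and 62.5%, against 40.8%, 38.5% and 45.3% of all genes), and Creb3l1 rose in Cyto (1.69 ± 0.09) and Nuc (1.35 ± 0.08). Of 15 eIF2 kinases and genes of the eIF2 machinery in 1 mM glucose, 7 were higher and 4 lower in WT, 5 and 2 in Cyto, and 6 and 3 in Nuc, and the medians were -0.0008, 0.11 and 0.12. The shares called, 73.3%, 46.7% and 60%, lay on both sides of those of all genes, and without WT replicate 2 the WT counts were 7 and 5. Eif2s2, the beta subunit of eIF2, rose by 0.96 ± 0.08, 1.17 ± 0.08 and 1.05 ± 0.08. Impact, an inhibitor of the eIF2 kinase GCN2, differed by -0.81 ± 0.09, -0.85 ± 0.09 and -1.18 ± 0.09. Ppp1r15b, the constitutive partner of the phosphatase that GADD34 also directs, rose in Cyto (0.87 ± 0.07) and Nuc (0.56 ± 0.07). With 10 mM glucose 4 of the 15 were higher and 4 lower in WT, 4 and 1 in Cyto, and 3 and 4 in Nuc, or 53.3%, 33.3% and 46.7%, against 40.8%, 38.5% and 45.3% of all genes. Without KO replicate 1, WT replicate 3 or WT replicate 4 the WT count was 5 in all, and without Nuc replicate 4 the Nuc count was 4.

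**Figure D4:**
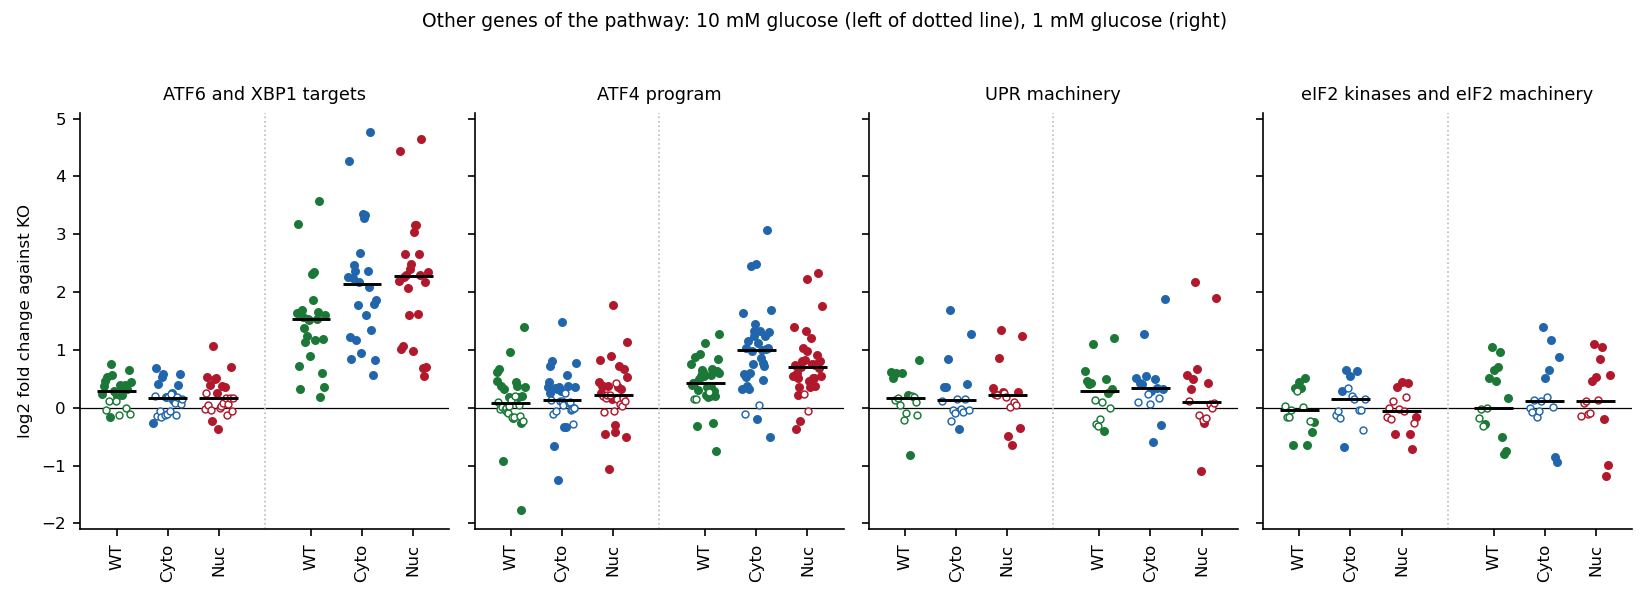
Log2 fold change against KO (vertical axis) of each measured gene of the 4 pathway lists in WT, Cyto and Nuc, with 10 mM glucose left and 1 mM glucose right of the dotted line. Each point is a gene, filled where its adjusted p is under 0.05, and bars are medians. All 24 ATF6 and XBP1 targets lie above 0 in 1 mM glucose, with medians of 1.53, 2.13 and 2.28, and the eIF2 list has medians between -0.0008 and 0.12 there.

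Genes with the most similar pattern were found by the root mean square difference over the 6 log2 fold changes against KO, among 5701 genes at or above the median level in both tables. These fold changes share the KO libraries of their medium, and the values describe likeness with no test. The distance is not divided by the size of the fold changes. Genes with small fold changes, such as Atf4 and Ern1, can therefore have nearer neighbours than genes with large ones. Atf4 had the closest neighbours, Ube2d2a (0.055), Ufm1 (0.065) and Ufd1 (0.071). Ern1 was nearest to Retsat (0.099), Adar (0.10) and Ube2d3 (0.10). Xbp1 was nearest to Serp1 (0.15), a factor that protects proteins during ER translocation, then to Got1 (0.17) and Ltv1 (0.18). Atf6 was nearest to Rps6ka2 (0.15), and Eif2ak3 to Gclc (0.17), the catalytic subunit of glutathione synthesis. Chac1 was nearest to Gask1b (0.24) and Trib3 to Mmp11 (0.32), a matrix metalloprotease. The nearest genes of Ddit3, Atf3 and Ppp1r15a were farther away: Ddit3 was nearest to Tle1 (0.52), Atf3 to Nupr1 (0.52) and Ppp1r15a to the ER stress protein Manf (0.52). Manf had log2 fold changes of 2.35, 3.34 and 3.16 over KO (WT, Cyto, Nuc) in 1 mM glucose, beside 1.98, 3.34 and 2.56 for Ppp1r15a. The values with 10 mM glucose were 0.39, 0.24 and 0.37 for Manf, beside 0.83, 1.05 and 0.94 for Ppp1r15a.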

How the data were processed

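RNA was purified with Qiagen RNeasy Plus kits and sequenced by Novogene, per the labels. The authors deposited 1 table of gene-level log2 values per medium, whose sums fit log2 CPM with a small offset and a scaling between libraries. The submitters' processing notes name kallisto, edgeR, limma and GRCm39, with no versions given in the sources used here. Within a table all libraries share 1 lowest value, -3.293 (10 mM) or -3.592 (1 mM). Whole reads could not be recovered, so depth is unknown and no counting intervals are given. The entry without a gene symbol, 1 per table, was left out, and no other filter was used. A Cyto library labelled replicate 3 in 10 mM glucose, which the design text calls an anomaly, has no values in the deposited data, so 31 of 32 libraries were used.

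Differences were tested with limma 3.58.1 in R 4.3.3, as 4 group means per table, with the prior variance following the mean level and Benjamini-Hochberg adjustment over the table. Differences between media used 8 group means over the 11931 shared genes. The code was tested on simulated data. All 10 genes are named, with up to 4 genes per list and comparison by smallest adjusted p, and up to 3 nearest genes by fold change. Further values of genes so named, such as Slc7a11 in WT with 1 mM glucose, and those of Manf were added after they were seen. The 10 genes, the lists and the tests were chosen with earlier results of these data known. Alternatives were a constant prior variance, equal library medians, quantile normalization, 1 added to linear values, a mean log2 value of at least 0, array weights, the replicate number as a term, the compared groups alone, and leaving out each library. Removing the trend on transcript length (GRCm38 annotation, 95.6% and 96.3% of genes matched) was added after seeing the data.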

Additional observations from a re-analysis of the deposited data

Results flagged for a closer look

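Of 70 groups of 4 libraries examined for the 10 genes, 6 held a library far from the other 3, where chance gives about 1 in 20. Ddit3 was at 9.70 in WT replicate 2 in 1 mM glucose, against 8.65 to 8.68 in the other WT libraries. In Nuc replicate 4 in 10 mM glucose Atf4 was at 9.21, against 8.92 to 8.96, and Ppp1r15a at 5.66, against 5.16 to 5.21. In 1 mM glucose Atf6 was at 7.69 in Nuc replicate 1, against 7.40 to 7.44, and Ern1 was at 6.94 in Cyto replicate 2, against 6.60 to 6.64. Chac1 was at 8.02 in Cyto replicate 1 and at 8.06 in the other Cyto libraries, a group with little spread.

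The fold change against KO differed between media, by limma's test of the difference (1 mM minus 10 mM glucose), for 7 genes in WT: Atf6 (0.98), Eif2ak3 (0.42), Xbp1 (1.07), Atf3 (0.68), Ddit3 (0.85), Ppp1r15a (1.15) and Chac1 (0.92). In Cyto 9 genes differed: Atf6 (1.30), Ern1 (0.75), Eif2ak3 (1.57), Xbp1 (1.47), Atf4 (0.49), Atf3 (1.92), Ddit3 (1.45), Ppp1r15a (2.29) and Chac1 (1.00). In Nuc 7 did: Atf6 (1.28), Eif2ak3 (0.89), Xbp1 (1.34), Atf3 (0.85), Ddit3 (1.69), Ppp1r15a (1.63) and Chac1 (1.22). The fold change of Nuc against Cyto differed for Eif2ak3 (-0.68) and Atf3 (-1.08). Medium and sequencing batch cannot be told apart in these tests.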

How the results depend on the processing

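No called value of the 10 genes changed sign under any alternative run. Within a medium, 2855 of 2940 values kept their side of the threshold, and 40 lost and 45 gained a call. Among those 2855, 25 values that were not called in either fit changed sign. For differences between media 1568 of 1600 kept their side of the threshold, 4 lost and 28 gained a call, and 7 of the 1568 were uncalled values that changed sign. Fits with 1 library left out make up 1860 of the 2940 values and 1240 of the 1600. Leaving out a library from outside the compared groups does not change the fold change. Within a medium, 112 of 120 values kept their side with a replicate block and 108 of 120 with array weights. The number of the 10 genes called in WT against KO in 10 mM glucose was 7 with a replicate block (4 without it). Of all genes 5745 were called with the block and 5218 without it. The block added Xbp1 (0.15) and Atf4 (0.16) as higher and Ern1 (-0.23, adjusted p = 0.0422) as lower. For Nuc against Cyto in 10 mM glucose the number of the 10 genes called was 6 with array weights and 3 to 6 with 1 library left out. Of all genes 3963 were called there as reported, and 3163 to 4211 with 1 library left out. Over the other alternatives 3489 to 5055 of all genes were called. For Nuc against WT in 10 mM glucose the number of the 10 genes was 2 to 6 with 1 library left out. There 3022 to 4008 of all genes were called, against 3685 as reported. For the difference between media of Nuc against Cyto the number of the 10 genes was 2 as reported. It was 5 with array weights (with 3672 of all genes called against 2261) and 4 with a replicate block (2341 of all genes). It was 4 with the compared groups alone, and 2 to 4 with 1 library left out (1926 to 2695 of all genes). The Atf3 difference between media in WT was also lost with the compared groups alone (adjusted p = 0.0553). The Ern1 call in Nuc against WT in 1 mM glucose (adjusted p = 0.0448) was also lost with a replicate block (0.0645), array weights (0.108), without the trend (0.0616), after quantile normalization (0.0576), with equal library medians (0.0559), with the compared groups alone (0.0901) and with the trend on transcript length removed (0.0717). The causes were not tested. The main fits did not pair libraries by replicate number. Same-numbered libraries had correlations of deviations from -0.182 to 0.136 over 24 pairs in 1 mM glucose, 2 of them over 0.1. In 10 mM glucose they ran from -0.0255 to 0.359 over 21 pairs, 5 of them over 0.1. The highest there were between Nuc replicate 4 and KO (0.359) or WT (0.232) replicate 4, so some sharing by replicate number is not excluded in that medium. No scaling moved the median of all genes by over 0.1. Unknown depth, 3 or 4 libraries per group and 1 batch per medium limit the precision.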
